A study of Mus musculus with 6 samples.

Results

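The BCL2 family genes studied here are 10 genes chosen by symbol from a table of 25664: the survival genes Bcl2, Bcl2l1 and Mcl1, the effectors Bax and Bak1, and the BH3-only genes Bcl2l11, Bid, Bbc3, Bmf and Bad. All 10 were listed, and 9 of them passed the filter on low counts, as did 11011 genes in all. Bcl2 was the member left out. The RNA came from alveolar macrophages, which live in the airspaces of the lung and clear particles and surfactant, sorted from lavage fluid of mice at 50000 cells a sample. Of the 6 libraries, 3 came from mice of genotype Vav1cre/+ Pex5fl/fl, called Vav1-Cre here, and 3 from Pex5fl/fl mice, called control. All the animals carry floxed Pex5, which encodes the import receptor of peroxisomes, and the labels give no Cre to the control group, so the Cre and the loss of Pex5 cannot be told apart. The Vav1 promoter drives Cre throughout the blood lineage, so that other blood cells are targeted along with macrophages. The labels give no age, sex or strain, nor do they tell whether each sample is a mouse of its own. The p-values thus cover the spread between these samples, which may be technical.

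BCL2 proteins decide whether the outer membrane of mitochondria stays closed or is opened, which releases cytochrome c and starts the caspases. Survival proteins hold the effectors BAX and BAK in check, and BH3-only proteins answer to stress by blocking the survival proteins or by activating the effectors directly. The balance is set in large part on the protein, by cleavage, phosphorylation and breakdown, so that transcript counts cover only a part of it. Alveolar macrophages are long-lived cells, and the study asks what peroxisomes do for their metabolism and survival.

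The members share the BH3 domain, the stretch by which they bind each other. Its core was searched in the longest annotated coding sequence of each gene (GENCODE mouse release 21, on GRCm38) as a leucine codon, 3 codons of any kind, a codon for glycine, alanine or serine, and an aspartate codon. Each of the 10 members had exactly 1 match, and so had Bok, a further effector that is described with them below. Of the other BCL2 family genes, Hrk, Bik, Bcl2l14, Bcl2l15, Bnip3 and Bnip3l also had 1 match each. No match was recorded for Bcl2l2, Bcl2l10, Bcl2l12, Bcl2l13 and the Bcl2a1 genes, and Pmaip1 was not searched. A miss of this strict pattern does not show that the domain is absent. Genes without a usable coding sequence were skipped and are not told apart from misses. How often genes outside the family hold this short pattern was not counted. The stretches of 48 bases around the match are given 5′ to 3′, with the leucine codon and the last pair of core codons in capitals, because they show what the genes that moved in opposite directions have in common:
Bcl2: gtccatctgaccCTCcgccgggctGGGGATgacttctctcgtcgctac
Bcl2l1: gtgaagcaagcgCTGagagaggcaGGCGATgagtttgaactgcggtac
Mcl1: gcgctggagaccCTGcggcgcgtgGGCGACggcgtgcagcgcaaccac
Bax: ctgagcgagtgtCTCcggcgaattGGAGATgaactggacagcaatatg
Bak1: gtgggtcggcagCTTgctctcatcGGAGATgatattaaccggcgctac
Bok: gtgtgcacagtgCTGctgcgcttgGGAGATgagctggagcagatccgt
Bcl2l11: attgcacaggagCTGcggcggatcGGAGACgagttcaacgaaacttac
Bid: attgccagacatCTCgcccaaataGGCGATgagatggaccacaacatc
Bbc3: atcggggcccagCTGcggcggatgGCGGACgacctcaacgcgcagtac
Bmf: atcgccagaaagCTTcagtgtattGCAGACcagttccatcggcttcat
Bad: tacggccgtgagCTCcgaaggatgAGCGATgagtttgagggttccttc
The stretch of Bid lies at chr6:120897280-120897327 on the minus strand, in exon 4, and that of Bcl2l11 at chr2:128147138-128147185 on the plus strand, in exon 3. Bbc3 and Bmf have an alanine codon and Bad a serine codon before the aspartate, where the others have glycine. The counts are per gene, so that splice forms with and without the BH3 core, which are known for several of these genes, are not told apart.

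Total counts per library ran from 13325609 to 19413838, with the groups overlapping. Vav1-Cre replicate 2 stood apart, with a scaling factor of 1.34 against 0.899 to 1.03 in the other libraries. Pex5 itself, the targeted gene, did not differ (log2 fold change 0.04 ± 0.11 SE, adjusted p = 0.891), and since reads from exons that Cre does not remove are counted too, this does not check the labels. All 12 alveolar macrophage markers were detected, and Chil3, the most abundant, was at 43069 CPM (counts of a gene scaled to a fixed total per library) in control and 48108 in Vav1-Cre. Of the 12, Fabp4 rose and Siglecf, Fabp1 and Krt79 fell, with Siglecf at 651 ± 28.6 CPM in control and 219 ± 39 in Vav1-Cre (mean ± SD, n = 3 per group).

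Among the 9 members tested 1 rose and 1 fell in the Vav1-Cre macrophages, both of them BH3-only genes. Bid, whose protein is cut by caspase-8 and carries the death signal to mitochondria, rose 2.26-fold. Bcl2l11, which encodes BIM, the BH3-only protein that kills blood cells deprived of growth factors, had a log2 fold change of -0.49 ± 0.09. No survival gene and neither of the effectors Bax and Bak1 was called. Of all tested genes 3.25% were called, 1.74% higher and 1.51% lower, at a Benjamini-Hochberg adjusted p under 0.05 in edgeR's quasi-likelihood test. At an unadjusted p under 0.05 there were 3 members, Bid, Bcl2l11 and Bmf, where all genes gave 18.9%. Levels below are CPM after scaling by trimmed mean of M values (TMM) unless another scale is named.

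**Figure D1:**
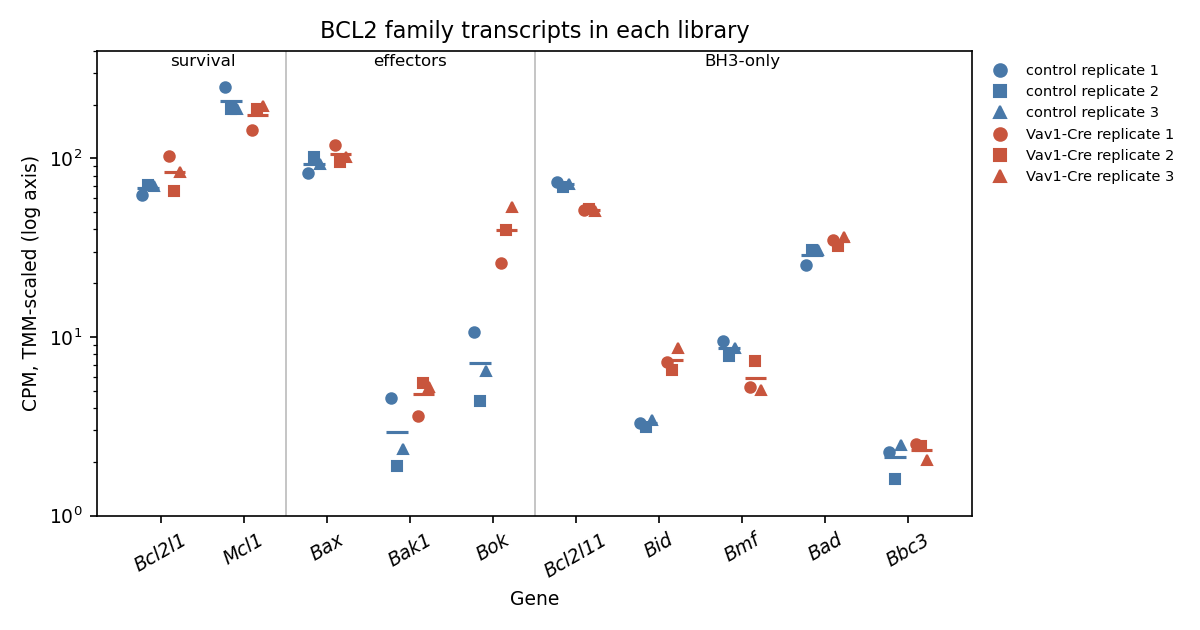
TMM-scaled CPM on a log axis for 9 tested members and Bok in each of the 6 libraries; points are libraries, with 1 shape per replicate number, and short bars are group means of 3. The groups lie apart for Bid, Bok, Bcl2l11, Bmf and Bad and overlap for the other genes plotted.

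Bcl2, the founding survival gene and the one lymphocytes depend on, was all but absent. Its counts were 1, 2 and 4 in Vav1-Cre replicates 1 to 3 and 0 in each control library, where 3 counts stand for 0.158 to 0.211 CPM. These levels are at the limit of the depth and no fold change is given. A level of 0 here allows up to 3 counts, and covers counting error only.

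Mcl1 was the most abundant of the 3 survival members. It encodes a short-lived protein that binds BIM, and neutrophils rely on it. In control replicates 1 to 3 its level was 250.4, 189 and 189 CPM, and in Vav1-Cre replicates 1 to 3 it was 143, 188 and 196 CPM. The 2 groups overlapped, with 1 high control library and 1 low Vav1-Cre library. The log2 fold change was -0.25 ± 0.17 (adjusted p = 0.448), with a 95% interval from -0.63 to 0.12.

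Bcl2l1, which encodes BCL-XL, had 62.4, 71.2 and 70.1 CPM in control and 104, 65.2 and 83.4 CPM in Vav1-Cre replicates 1 to 3. Vav1-Cre replicates 1 and 3 were above every control library and replicate 2, the library with the large scaling factor, was not. Its log2 fold change was 0.30 ± 0.16 (adjusted p = 0.350), and the 95% interval of the fold ran from 0.956 to 1.60.

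Of the effectors, which form the pores, Bax had 82.4, 101 and 93.4 CPM in control and 118, 95.05 and 102 CPM in Vav1-Cre replicates 1 to 3. The groups overlapped, and the log2 fold change was 0.19 ± 0.12 (95% interval -0.10 to 0.47, adjusted p = 0.461). A longer annotated gene on the same strand, Gm45808, shares 192 exon bases with Bax, and exons of Ggnbp1, on the opposite strand, overlap Bak1. Bak1 was much scarcer, at 4.54, 1.89 and 2.36 CPM in control and 3.60, 5.55 and 5.26 CPM in Vav1-Cre. Control replicate 1 lay among the Vav1-Cre libraries. Bak1 rested on 33 to 132 counts a library and its estimate was wide, 0.74 ± 0.34 (95% interval -0.04 to 1.52, adjusted p = 0.286).

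Bid measured 3.29, 3.15 and 3.44 CPM in the control libraries, and 7.20, 6.51 and 8.65 CPM in the Vav1-Cre libraries, in replicate order. Every Vav1-Cre library was above every control library, and the control libraries lay close together. The log2 fold change was 1.18 ± 0.20 (95% interval 0.73 to 1.62, adjusted p = 0.0192), on 42 to 55 counts in control and 92 to 155 in Vav1-Cre. Exons of Bid and of Bcl2l13, a mitochondrial family gene on the opposite strand, share 628 bases, 17.7% of the exons of Bid. It is not stated whether the counting used strand, and Bcl2l13 itself had a log2 fold change of -0.09 ± 0.11 (adjusted p = 0.714). The size of the rise held in every fit that left out 1 library, from 1.05 to 1.28. The call did not: the adjusted p was 0.0165 without Vav1-Cre replicate 2, and 0.0676 and 0.0546 without Vav1-Cre replicates 1 and 3 and 0.0852, 0.0695 and 0.0575 without control replicates 1, 2 and 3.

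Bcl2l11 stood at 73.8, 69.3 and 71.9 CPM in control and at 51.1, 51.9 and 50.5 CPM in Vav1-Cre replicates 1 to 3. The libraries of a group differed from each other by a few percent, and the groups did not overlap. The log2 fold change of -0.49 ± 0.09 had a 95% interval from -0.69 to -0.28 and an adjusted p of 0.0259. This fall depended on scaling beyond library size. In CPM of the unscaled totals, Vav1-Cre replicate 2 had 69.4, among the control values of 66.3, 63.7 and 74.2, while Vav1-Cre replicates 1 and 3 had 49.0 and 46.0. With library size as the only scaling the log2 fold change was -0.31 (adjusted p = 0.614), and all genes shifted by 0.17 between that and TMM. With DESeq2 size factors in edgeR's test it was -0.48 (adjusted p = 0.0271). Without Vav1-Cre replicate 2, on TMM scaling, the fall was called (-0.48, adjusted p = 0.0385). Its call ended without each of the others, at 0.0944 and 0.0732 without Vav1-Cre replicates 1 and 3 and 0.113, 0.0681 and 0.102 without control replicates 1, 2 and 3.

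Bmf, whose protein is released from the cytoskeleton by stress, leaned the same way as Bcl2l11. It had 9.54, 7.79 and 8.71 CPM in control and 5.24, 7.31 and 5.03 CPM in Vav1-Cre. The groups did not overlap, but the gene was not called (-0.55 ± 0.20, 95% interval -1.01 to -0.09, adjusted p = 0.185).

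Bad, the BH3-only protein that growth factor signalling keeps phosphorylated and inactive, was the most abundant BH3-only transcript per length. Its levels of 25.4, 30.6 and 30.8 CPM in control and 35.0, 32.1 and 36.3 CPM in Vav1-Cre did not overlap either. The difference was small and not called (0.25 ± 0.11, 95% interval -0.00 to 0.51, adjusted p = 0.271). Gpr137, on the opposite strand, shares 524 exon bases with Bad.

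Bbc3, which encodes PUMA, a main p53 target in apoptosis, was scarce in both groups. It had 2.27, 1.60 and 2.50 CPM in control and 2.50, 2.44 and 2.04 CPM in Vav1-Cre, on 28 to 58 counts a library. The groups overlapped, and the 95% interval of its log2 fold change, -0.47 to 0.75, leaves room for a change in either direction (0.14 ± 0.27, adjusted p = 0.833).

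On TMM scaling the groups did not overlap for 4 of the 9 tested members, the BH3-only genes Bid, Bad, Bcl2l11 and Bmf. For all tested genes that share was 26.1%. The set depended on the scaling of Vav1-Cre replicate 2: in CPM of the unscaled totals that library had 9.77 for Bmf, above the control values of 7.16 to 8.99, and Bmf and Bcl2l11 overlapped. The survival gene Bcl2l1 then lay apart, at 76.0 to 99.4 in Vav1-Cre and 56.1 to 72.4 in control, as Bid and Bad still did. The median log2 fold change of the 9 was 0.19, beside -0.00077 over all genes tested, with 6 values above 0 and 3 below.

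**Figure D2:**
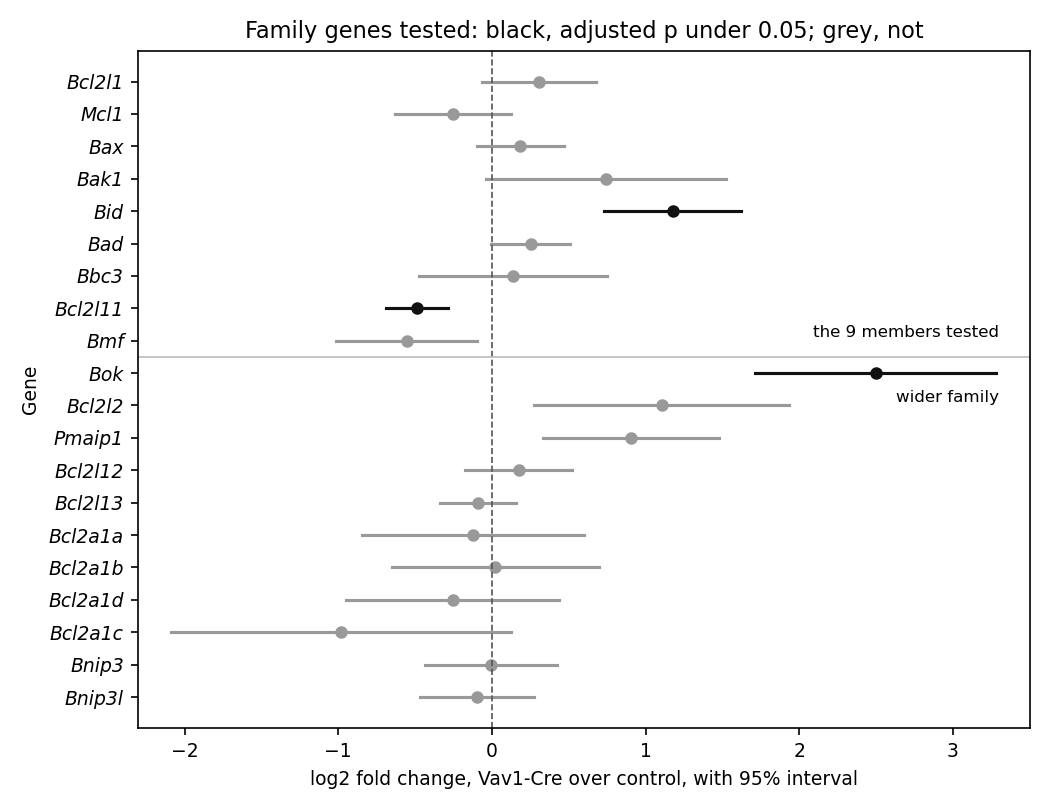
Log2 fold change of Vav1-Cre over control with its 95% interval for the 9 tested members, above the grey line, and 11 tested genes of the wider family, below it. Black marks an adjusted p under 0.05 over all genes: Bid at 1.18, Bcl2l11 at -0.49 and Bok at 2.50.

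The promoters of the called pair are shown because the data turn on them moving in opposite directions. The sequences are the 250 bases before the annotated start, from RefSeq (GRCm38.p6), 5′ to 3′ on the gene's strand, and capitals mark letters searched on both strands: a FOXO site (GTAAACA), a CHOP-ATF4 site (TGATGNAA), a cAMP response site (TGACGTCA), an E-box (CACGTG), a GC box (GGGCGG) and a TATA box (TATAAA).
Bcl2l11, chr2:128125788-128126037, plus strand: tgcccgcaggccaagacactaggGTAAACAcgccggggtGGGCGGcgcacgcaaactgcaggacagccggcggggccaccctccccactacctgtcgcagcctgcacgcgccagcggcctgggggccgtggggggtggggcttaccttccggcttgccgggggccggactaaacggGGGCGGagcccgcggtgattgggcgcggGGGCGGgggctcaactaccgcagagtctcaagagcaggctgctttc
Bid, chr6:120916825-120917074, minus strand: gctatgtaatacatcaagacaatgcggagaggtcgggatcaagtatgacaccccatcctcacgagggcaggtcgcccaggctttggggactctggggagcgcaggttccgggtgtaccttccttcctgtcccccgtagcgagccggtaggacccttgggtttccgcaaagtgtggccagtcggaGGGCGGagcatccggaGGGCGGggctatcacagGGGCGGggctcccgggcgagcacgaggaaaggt
Both windows hold 3 GC boxes. At least 1 GC box occurs in 33.0% of 32536 promoter windows of that length. The window of Bcl2l11 also has 1 FOXO match, found in 3.17% of windows, and that of Bid has none. A window of Bbc3, a member that was not called, has 1 FOXO match too. Bcl2l11 has a further annotated start whose window holds 2 GC boxes and no FOXO match. FOXO factors are known to switch on Bcl2l11, and their part here was not tested. Neither of the printed windows held the CHOP-ATF4, cAMP response, E-box or TATA letters, which says only that these letters are not there.

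Levels of different genes were compared per kilobase of merged exons. In control the order of the means ran from Mcl1 (61.3 CPM per kilobase) and Bax (58.6), which overlapped, down to Bcl2l1 (14.8), Bad (11.3) and Bcl2l11 (8.92), each apart from its neighbours. Bmf (1.65), Bak1 (1.22), Bbc3 (0.9997) and Bid (0.928) formed a low group in which neighbours overlapped. In Vav1-Cre, Bax (66.7) lay above Mcl1 (51.4) in every library, and Bid (2.10) was the sixth of the 10 where it was the ninth in control, its range overlapping that of Bak1 (1.99). These places depend on the length used. Per kilobase of the longest transcript Bax was above Mcl1 in control too (means of 84.0 and 61.3), and Bid was already the seventh there (1.36, against 1.23 for Bak1 and 1.17 for Bbc3) and the sixth in Vav1-Cre. As a share of the BH3-only transcripts per length, Bcl2l11 made up 37.5% ± 2.2 in control and 26.4% ± 1.17 in Vav1-Cre, Bid 3.9% ± 0.147 and 8.67% ± 1.02, and Bad 47.4% ± 3.67 and 55.8% ± 1.86 (SD, n = 3).

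Ratios of genes within a library do not depend on how libraries are scaled. Bid over Bcl2l11, per exon length, was 0.101, 0.103 and 0.108 in control replicates 1 to 3 and 0.319, 0.284 and 0.387 in Vav1-Cre replicates 1 to 3. The lowest Vav1-Cre library was thus well above the highest control library, Vav1-Cre replicate 2 included. It is a description with no test, since both genes had been called.

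The summed survival members over the summed death members, per length, gave no such separation. That ratio was 1.13, 0.799 and 0.829 in control and 0.640, 0.804 and 0.821 in Vav1-Cre. Replicates 2 and 3 of both groups lay between 0.799 and 0.829, and replicate 1 was the highest in control and the lowest in Vav1-Cre. The mean difference of the log2 ratio, -0.27, compares with SDs of 0.27 in control and 0.20 in Vav1-Cre. It rested on Mcl1, and without that gene it was 0.13. The survival sum here holds Bcl2, Bcl2l1 and Mcl1 only. With Bcl2l2 and the Bcl2a1 genes added, the ratio was 9.68, 10.1 and 6.997 in control replicates 1 to 3. In Vav1-Cre replicates 1 to 3 it was 8.72, 4.75 and 8.78. The groups overlapped again, with a mean difference of the log2 ratio of -0.305. The level of the ratio thus depended on which survival genes were summed. Bcl2l1 over Mcl1 was 0.186, 0.280 and 0.277 in control and 0.540, 0.259 and 0.318 in Vav1-Cre, and overlapped too.

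**Figure D3:**
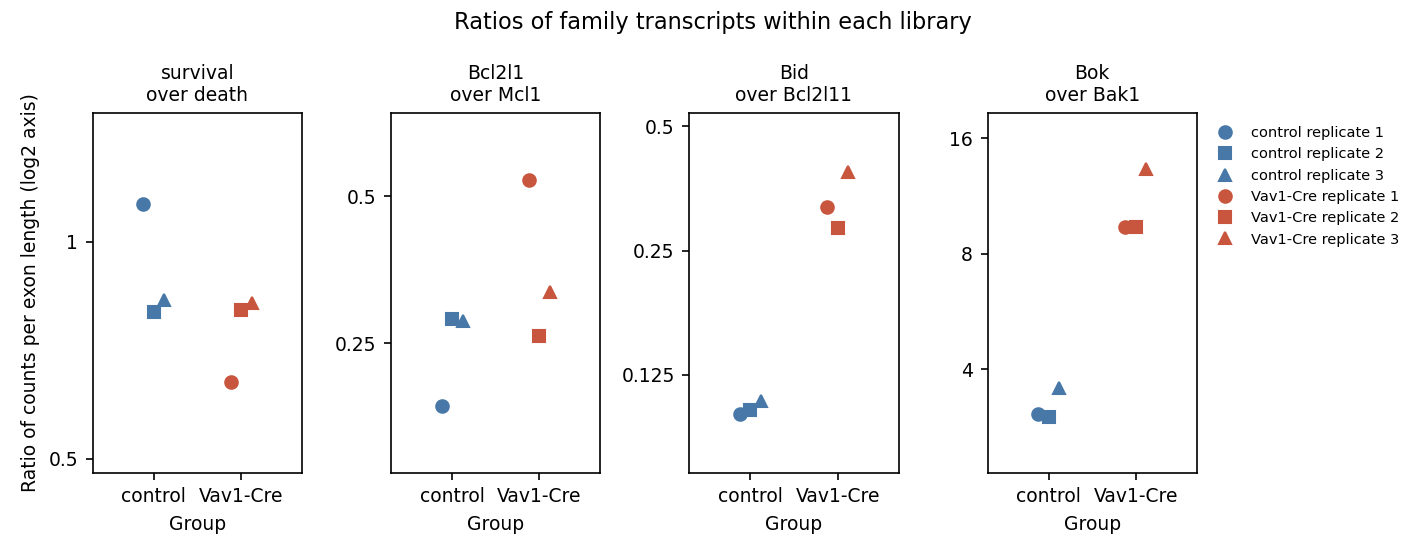
Ratios of counts per exon length within each library on log2 axes, by group, with 1 shape per replicate number. Bid over Bcl2l11 and Bok over Bak1 lie apart between groups, while survival over death and Bcl2l1 over Mcl1 overlap. No test was made of these ratios, and Bid, Bcl2l11 and Bok were called genes.

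In the wider family 1 of 11 tested genes rose and 0 fell: Bok, an effector related to BAX and BAK that sits largely on the endoplasmic reticulum and is not held by survival proteins. Bok, at chr1:93685660-93695764 on the plus strand, had 10.6, 4.35 and 6.48 CPM in control and 25.9, 39.9 and 53.5 CPM in Vav1-Cre replicates 1 to 3. All Vav1-Cre libraries were above all control libraries, with a wide spread inside both groups. It rose 5.65-fold (log2 fold change 2.50 ± 0.34, 95% interval 1.71 to 3.28, adjusted p = 0.00953). Its call held without any 1 library (log2 fold change 2.23 to 2.89) and under each of the other 7 settings tried. Per length, Bok went from 3.89 ± 1.74 to 21.6 ± 7.49 CPM per kilobase of merged exons, and Bok over Bak1 was 3.07, 3.01 and 3.59 in control and 9.41, 9.42 and 13.3 in Vav1-Cre. That ratio too is a description with no test, since Bok had been called. No exon of another annotated gene overlaps Bok, and none of its words of 100 bases occurs elsewhere among the transcripts.

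**Figure D4:**
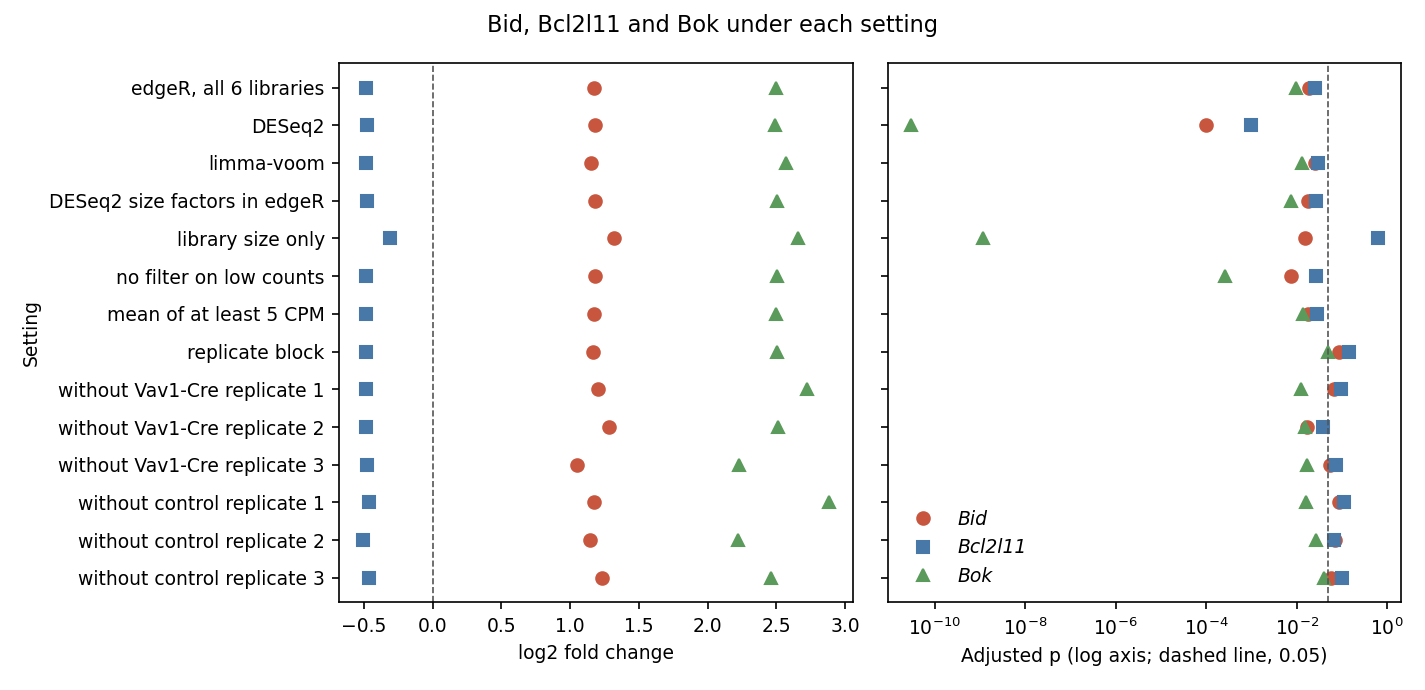
Log2 fold change, left, and adjusted p on a log axis, right, of Bid, Bcl2l11 and Bok under the test with all 6 libraries, 7 other settings and 6 fits that leave out 1 library. The fold changes hold their side of 0 throughout, Bok is below 0.05 in all fits, and Bid and Bcl2l11 move above it in most fits that leave out 1 library.

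Pmaip1, which encodes the BH3-only protein NOXA that blocks MCL1, had 4.22, 5.84 and 3.92 CPM in control and 8.76, 6.55 and 11.1 CPM in Vav1-Cre. The groups did not overlap and it was not called (0.90 ± 0.25, adjusted p = 0.0959), though it was by DESeq2 (adjusted p = 0.0243) and without Vav1-Cre replicate 2 (0.0453). Bcl2l2, a survival gene, was low, with 13 to 82 counts, and not called (1.10 ± 0.36, adjusted p = 0.148). Gm20521, on the same strand, shares 594 exon bases with it.

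The Bcl2a1 genes, survival genes of myeloid cells that exist in several near-identical copies in mice, were the most abundant of the whole family per length. Bcl2a1b had 228, 310.1 and 195 CPM in control and 320, 139 and 287 CPM in Vav1-Cre replicates 1 to 3. Bcl2a1a had 158, 189 and 115 CPM in control and 183, 73.4 and 168 in Vav1-Cre, and Bcl2a1d 149, 181 and 119 and then 165, 66.3 and 146. Vav1-Cre replicate 2 had the lowest level of all 6 libraries for each of them. The log2 fold changes of 0.02 ± 0.30, -0.12 ± 0.32 and -0.26 ± 0.31 were not called. These copies share 43.5% to 56.8% of their words of 100 bases with other genes, so the split of reads among them is uncertain. Gm29094, on the same strand, shares 401 exon bases with Bcl2a1b, 49.1% of the exons of Bcl2a1b. Bcl2a1c was low (-0.98 ± 0.49, adjusted p = 0.318).

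Of the remaining genes of that list, Bcl2l12 (0.17 ± 0.15) and the mitophagy receptors Bnip3 (-0.01 ± 0.19) and Bnip3l (-0.10 ± 0.16) were not called. Bik had at most 5 counts in a library. Hrk, Bcl2l10, Bcl2l14 and Bcl2l15 had no count in any library.

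Of 23 tested genes of the apoptosome, the caspases and their inhibitors 0 were called by edgeR's quasi-likelihood test. At an unadjusted p under 0.05 there were 3, DESeq2 called 1 and limma-voom 0, and the median log2 fold change was -0.13. Over all 11011 tested genes, 18.9% had an unadjusted p under 0.05, DESeq2 called 755 and limma-voom 324. Endog, a mitochondrial nuclease, went from 13.5 ± 0.665 to 18.8 ± 1.18 CPM (0.47 ± 0.12, adjusted p = 0.0732), and Ripk1, a kinase of death receptor signalling, had 0.50 ± 0.15 (adjusted p = 0.122). Casp8, the protease that cuts BID and the most abundant gene of this list, stood at 91.6 ± 2.29 CPM in control and 90.2 ± 4.83 in Vav1-Cre (-0.02 ± 0.09, adjusted p = 0.929).

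Partners of BCL2 proteins gave 0 calls among 25 tested genes, with 6 at an unadjusted p under 0.05, 3 by DESeq2 and 0 by limma-voom (median -0.10). Ywhaz, a 14-3-3 protein of the group that holds phosphorylated BAD, went from 281 ± 30.1 to 181 ± 25.7 CPM and missed the threshold (-0.64 ± 0.15, adjusted p = 0.0552). Bag1, a co-chaperone that binds BCL2, had 0.64 ± 0.16 (adjusted p = 0.0734), and Tmbim6, known as BAX inhibitor 1 and the most abundant gene of the list, -0.60 ± 0.19 (adjusted p = 0.131).

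Transcription factors known to act on family genes gave 0 calls among 15 tested (median -0.09). At an unadjusted p under 0.05 there were 6, where all genes gave 18.9%. DESeq2 called 3 of the 15, beside 755 of all 11011 genes, and limma-voom called 0. Atf4, the factor of the integrated stress response, went from 67.4 ± 2.99 to 89.2 ± 3.82 CPM (0.40 ± 0.09, adjusted p = 0.0595). Ddit3, which encodes CHOP, went from 10.7 ± 1.35 to 16.9 ± 1.96 CPM (0.65 ± 0.15, adjusted p = 0.0595). Stat3 was the most abundant of them (-0.29 ± 0.12, adjusted p = 0.226).

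Markers of other cells were compared because neutrophils and lymphocytes have their own pattern of family genes, and in bulk samples fewer cells of a type and less RNA per cell cannot be told apart. Of 11 neutrophil markers 4 were tested and 2 rose, Cxcr2 (2.17 ± 0.28) and S100a8 (2.07 ± 0.35). The other tested markers were not called: Csf3r had 40.5 ± 7.84 CPM in control and 28.1 ± 9.44 in Vav1-Cre (-0.52 ± 0.24, adjusted p = 0.279), and Mmp8 a log2 fold change of 0.90 ± 0.31 (adjusted p = 0.156). Summed, the list gave 77.7 to 102 CPM in control and 133 to 180 in Vav1-Cre, on unscaled totals, while S100a9, Ly6g, Retnlg, Camp, Ngp and Stfa2l1 had no count in any library. Monocyte and interstitial macrophage markers summed to 3.58 to 7.53 CPM in control and 5.46 to 9.61 in Vav1-Cre. Cd3g, Cd3d, Cd79a and Cd79b of T and B cells had no count, although Cd2 and Cd22 were abundant in both groups. Red cell genes summed to 0.075 to 6.79 CPM in Vav1-Cre, highest in replicate 2, and had no count in control. Epithelial markers, led by Krt19, summed to 1080 to 1250 CPM in control and 963 to 1080 in Vav1-Cre. Of the 4 tested 0 were called (1 at an unadjusted p under 0.05, 0 by DESeq2). Almost all of that sum was Krt19 and Cdh1. On unscaled totals Krt19 had 1030 to 1200 CPM in control and 889 to 1010 in Vav1-Cre. Krt8 and Krt18 had at most 2 counts in a library, and Sftpc at most 1.34 CPM. Dendritic cell markers stayed at or below 1.07 CPM, and those of eosinophils, mast cells and basophils at or below 0.15 CPM. Of 15 tested immediate early genes, which can rise with handling, 1 rose, Atf3 (1.37 ± 0.23, adjusted p = 0.0203). The Atf3 call was lost with the replicate number as a block (adjusted p = 0.057), and without control replicate 1 or 2 (0.098 and 0.075). Fos, the most abundant, did not pass (0.13 ± 0.30). The part of these markers in the values of Bid, Bok and Bcl2l11 was not tested.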

How the data were processed

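RNA-seq of 6 libraries of sorted alveolar macrophages was used, prepared with a stranded SMART-Seq kit and read as single ends of 100 bp, per the labels' protocols. The authors deposited raw counts per gene, 1 column per library. Per the submitters' processing notes, which give no order, the builds were GRCm38.p5 and mm10 and the tools DESeq2 1.40.1, R 4.3.2, featureCounts and STAR. Annotation and strand setting: not given in the sources used here. Counts are of PCR-amplified reads without molecular identifiers.

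Genes were kept with edgeR's filterByExpr (minimum count 10, minimum total 15), scaled with TMM and tested with edgeR 4.0.16 (glmQLFit, glmQLFTest, two-sided) in R 4.3.3, adjusted by Benjamini-Hochberg over 11011 genes, with a threshold of 0.05. SEs come from the F statistics. Alternatives used DESeq2 1.42.0 and limma 3.58.1. The fit was tested on simulated data. Exon lengths, overlaps and shared words are from GENCODE mouse release 21 on GRCm38. No pair of libraries held identical counts.

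The members and lists were chosen with earlier results of these data known. Named were all members, all tested genes of the wider family, and of each pathway list every called gene (up to 4), the 2 uncalled genes with the smallest p and the most abundant gene; of marker lists the most abundant and up to 3 called genes. Csf3r, Mmp8 and the marker genes at 0 were named for their place beside a result. A marker gene that this rule picks is not reported here.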

Additional observations from a re-analysis of the deposited data

How the results depend on the processing

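The count of called genes, 358, was 755 with DESeq2 and 83 with the replicate number as a block, and 76 to 523 when 1 library was left out. The counts showed no pairing by replicate number: deviations of same-numbered libraries correlated at -0.214, -0.0618 and -0.411, and no sample correlated best with its own number. With 3 libraries a group this cannot settle whether the samples were paired. With that replicate block 0 members were called, and with library size only 1, against 2 otherwise, and 0 to 2 when 1 library was left out. Wider family calls were 2 with DESeq2 and 1 to 2 in the fits without 1 library. The apoptosome and caspase list had 1 call with DESeq2, the partners 3 with DESeq2 and 2 with no filter, and the transcription factors 3 and 1, with 0 to 2 and 0 to 1 for the latter lists without 1 library. The cause was not tested. The survival to death difference was 0.135 with Mcl1 left out, and -0.365 to -0.117 without 1 library. Signs changed for uncalled values: with library size only for Bcl2l13 (0.10), Bnip3 (0.170), Bnip3l (0.044) and Casp8 (0.138), with limma-voom for Bnip3 (0.034), with DESeq2 size factors for Bnip3 (2.48e-05) and with the block for Bcl2a1b (-0.024). Without 1 library the log2 fold changes crossed 0 for Pex5 (-0.039 to 0.10), Bbc3 (-0.040 to 0.295), Bcl2a1a (-0.352 to 0.203), Bcl2a1b (-0.199 to 0.323), Bcl2a1d (-0.502 to 0.066), Bnip3 (-0.130 to 0.149), Bnip3l (-0.214 to 0.047), Casp8 (-0.051 to 0.035) and Fos (-0.320 to 0.352). Depth limits Bcl2, Bik, Bbc3, Bcl2l2, Bak1 and Bcl2a1c, and Bid too rested on low counts, 42 to 55 in control.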
